A study of Mus musculus with 2 samples.

Results

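Genes of the Wnt and Notch signaling pathways were examined in whole-kidney RNA of mice with acute kidney injury (AKI). Members were taken by gene symbol alone and comprised the Wnt ligands, Frizzled and Lrp5/6 receptors, Dkk and Sfrp inhibitors, R-spondins, *Znrf3*, *Rnf43*, axins and TCF/LEF factors of the Wnt pathway, and the receptors, Jagged and Delta-like ligands and Hes and Hey factors of the Notch pathway. Of 19829 listed genes, 55 were members, 40 of them in the Wnt and 15 in the Notch pathway. A further 14 symbols of these families (*Wnt1*, *Wnt3*, *Wnt3a*, *Wnt8a*, *Wnt10b*, *Fzd10*, *Dkk1*, *Dkk4*, *Rspo1*, *Rspo2*, *Rspo4*, *Dll3*, *Hes3* and *Hes5*) had no row and were not analysed here.

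Whole kidneys of control wild-type littermates (WT+AKI) and of *Inmt* transgenic mice (TG+AKI) gave 1 library each, and the sources used here do not say how many animals a library held or which promoter drives the transgene. The transgene raises indolethylamine N-methyltransferase, a methylating enzyme for indole amines, in proximal tubules. By the study's methods, male C57BL/6 mice of both groups received daily voclosporin (30 mg/kg), a calcineurin inhibitor, over 2 weeks, between the ages of 8 and 10 weeks, and then bilateral renal ischemia of 30 min with reperfusion at 14 weeks, although the samples' own treatment entries name no treatment and the title of the transgenic sample also speaks of a proximal tubule conditional knockout. Kidneys were taken 24 h after ischemia according to a legend and 48 h according to the methods. Both groups thus shared the drug and the injury, and no uninjured or untreated kidney was in the comparison.

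Wnt proteins bind Frizzled receptors together with Lrp5 or Lrp6, which stabilizes β-catenin and lets it act with TCF/LEF factors on target genes. Notch receptors are cleaved after contact with a Jagged or Delta-like ligand on a neighbouring cell, and the freed intracellular part acts with RBPJ on genes such as the Hes and Hey repressors. Both pathways pattern the nephron during development, are mostly quiet in the adult tubule, and are known to be reactivated in injured tubules, vessels and interstitium.

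The libraries held 38542764 (WT+AKI) and 36427421 (TG+AKI) reads over the listed genes, and the members took 0.10% and 0.0817% of them. Values are normalized read counts, in which 1 read stands for 0.0236 (WT+AKI) or 0.0302 (TG+AKI). *Inmt* had values of 10.4 and 402.8, so the direction follows the genotype label. The injury markers *Havcr1* (1168.8 and 2.78) and *Lcn2* (249.8 and 1.87) were far lower in TG+AKI. *Umod* (1427 and 1921) and *Slc34a1* (764.5 and 5397), which mark thick limb and proximal tubule, were abundant in both. With 1 library per group there is no replicate check, and differences between mice of a group could not be measured. Brackets hold 95% exact intervals of a ratio from the reads, which cover counting error only.

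A member was compared when the mean of its values was at least 1, and was called when the ratio of TG+AKI to WT+AKI was at least 2-fold in either direction. Of the 55 members 41 passed this filter. Of these, 2 were at least 2-fold higher (*Sfrp1* and *Hey1*) and 5 at least 2-fold lower (*Notch3*, *Heyl*, *Wnt9a*, *Wnt10a* and *Tcf7*) in TG+AKI. Among all 14543 compared genes 6.7% were called higher and 10.1% lower, together 16.8%, and the members' 7 of 41 (17.1%) lay near that share. *Hey1* passed the filter only through its value in TG+AKI, and *Wnt9a*, *Wnt10a* and *Tcf7* only through theirs in WT+AKI, so these counts describe the members and support nothing further. Of the called genes in all, 39.8% were higher, and 22.6% with equal library totals, which moves the median of all genes by -0.27 on the log2 scale. Counting intervals lay above 1 for 11 and below 1 for 20 of the 41 members, beside 36.4% and 38.5% of all compared genes. The median log2 ratio was -0.30 over the members and -0.01 over all compared genes. It was -0.28 over 28 Wnt members and -0.35 over 13 Notch members.

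The 7 called genes lie apart in the mouse genome (mm10, gene models of GENCODE M21), and the spans given run from the first to the last annotated exon. *Notch3* lies at chr17:32120820-32166852 (minus strand), *Heyl* at chr4:123233556-123249875 (plus strand) and *Hey1* at chr3:8663359-8667256 (minus strand). *Wnt9a* lies at chr11:59306928-59333552 (plus strand), on the same chromosome as *Tcf7* at chr11:52252371-52283014 (minus strand). *Wnt10a* lies at chr1:74791516-74804179 (plus strand), next to *Wnt6* at chr1:74771892-74785322 (plus strand), and *Sfrp1* at chr8:23411502-23449632 (plus strand). No exon of *Heyl*, *Hey1*, *Wnt9a*, *Wnt10a*, *Tcf7* or *Sfrp1* overlaps that of another annotated gene.

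**Figure D1:**
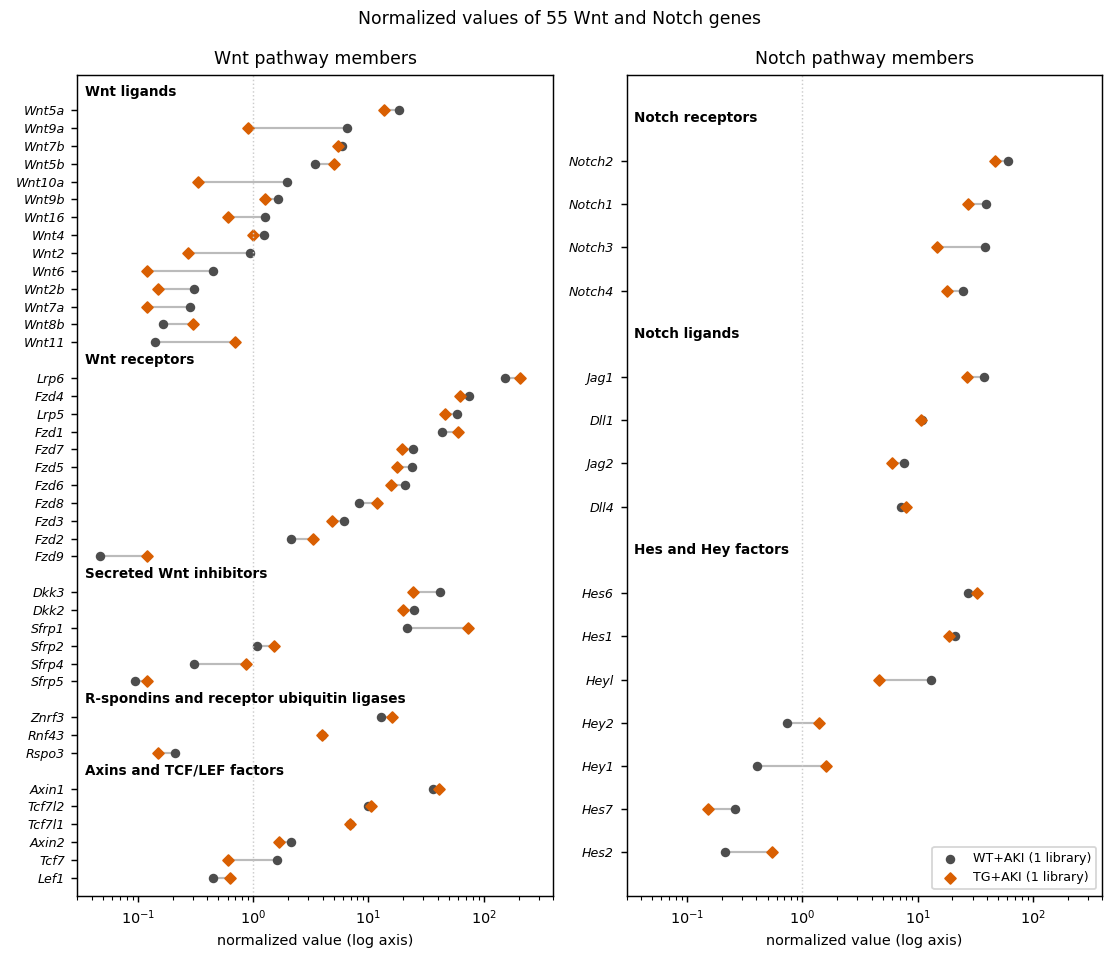
Normalized values of the 55 members in WT+AKI (circles) and TG+AKI (diamonds), 1 library each, on a logarithmic axis, grouped by role and ordered by the WT+AKI value. The dotted line marks a value of 1. *Lrp6* had the highest normalized values, not corrected for gene length, at 153.2 and 205.8, and the widest gaps were those of *Wnt9a*, *Wnt10a*, *Wnt11* and *Hey1*.

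**Figure D2:**
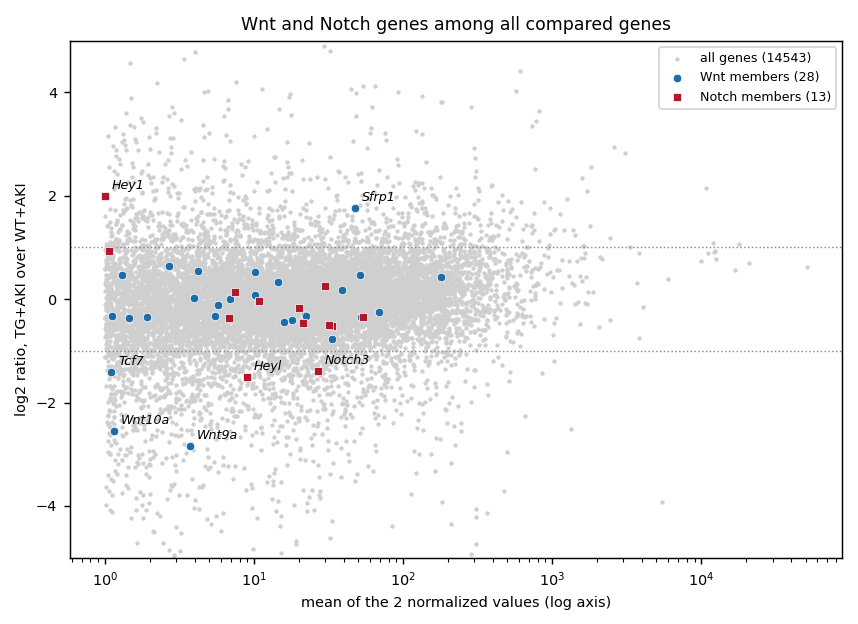
Log2 ratio of TG+AKI over WT+AKI against the mean normalized value for 14543 compared genes (grey), 28 Wnt members (circles) and 13 Notch members (squares), with dotted lines at 2-fold. Another 41 genes lie outside the vertical axis, and the 7 called members are named.

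All 4 Notch receptors were lower in TG+AKI, and *Notch3* differed most. *Notch3*, the receptor known from pericytes and vascular smooth muscle, had a value of 38.8 from 1643 reads in WT+AKI against 14.8 from 491 reads in TG+AKI. It was 2.61-fold lower in the transgenic kidney [2.36 to 2.90]. *Notch1*, a receptor of many epithelia and of endothelium, had values of 39.1 and 27.4, 1.43-fold lower [1.31 to 1.55]. *Notch2*, which is required for proximal nephron formation, had 60.3 and 47.2, 1.28-fold lower [1.2 to 1.36]. *Notch4*, an endothelial receptor, had 24.6 and 17.9, 1.38-fold lower [1.24 to 1.52]. The intervals of these 3 exclude 1 but stay under 2-fold.

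Ratios of reads within a library do not depend on how the libraries were scaled. *Notch3* was singled out as the receptor that differed most, so its lower standing against each relative was fixed by that choice. The ratios below describe sizes only. For each *Notch1* read there were 0.991 *Notch3* reads in WT+AKI against 0.541 in TG+AKI, a 1.83-fold difference [1.61 to 2.09]. Against *Notch2* the difference was 2.05-fold [1.82 to 2.31] and against *Notch4* 1.90-fold [1.64 to 2.2]. Per kilobase of exon, *Notch3* stood behind *Notch2* in WT+AKI, at 4.79 against 5.59. In TG+AKI it was the lowest of the 4 at 1.83, next to *Notch1* at 1.93, whose counting interval (1.80 to 2.06) overlaps that of *Notch3* (1.67 to 2.0). Summed over the 4 receptors, the level per kilobase was 16.2 in the wild-type and 10.4 in the transgenic library. *Notch3* made up 29.6% of the summed receptor level per kilobase in WT+AKI and 17.7% in TG+AKI, while *Notch2* held 34.5% and 42.3%. *Notch4* stood above *Notch1* in both libraries by the union of exons and below it by the longest transcript. Of the exon bases of *Notch1* 10.4%, and of those of *Notch3* 6.03%, overlap annotated genes on the other strand. Of the exon bases of *Notch2* 5.02% overlap another annotated gene on its own strand, and 2.43% of its 100-base stretches occur in another gene too. Whether the counting used the strand was not stated.

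Among the ligands, *Jag1* had the highest level per kilobase (6.45 and 4.56) and was the one with the clearest difference. *Jag1*, which encodes Jagged1, had values of 37.6 and 26.5 and was 1.42-fold lower in TG+AKI [1.30 to 1.54]. *Jag2* was 1.28-fold lower at 7.67 and 5.98 [1.07 to 1.54]. The Delta-like ligands were near equal. *Dll1* had 10.9 and 10.6 (ratio 0.978 [0.848 to 1.13]), and *Dll4*, the ligand of arterial and sprouting endothelium, had 7.12 and 7.88 (ratio 1.11 [0.934 to 1.31], below 1 with equal library totals). Both intervals hold 1, and they leave room for differences of up to about 1.31-fold. Each *Dll4* read was matched by 5.28 *Jag1* reads in WT+AKI against 3.37 in TG+AKI, a 1.57-fold difference within the libraries [1.30 to 1.89]. *Jag1* had the lowest and *Dll4* the highest ratio of the listed ligands, so this pair fixed the direction. For *Dll1*, 20.5% of exon bases overlap a gene on the other strand.

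The Hes and Hey factors, the transcriptional repressors that Notch induces, did not move together. *Heyl* had a value of 13.2 from 559 reads in WT+AKI against 4.65 from 154 reads in TG+AKI. It was 2.84-fold lower [2.37 to 3.41]. *Hey1* went the other way, from 0.401 (17 reads) to 1.60 (53 reads), a ratio of 3.99 with a wide interval [2.27 to 7.35]. Its mean value of 1.0007 lies at the very edge of the filter. *Hey2*, like *Hey1* an endothelial Notch target, had 0.731 and 1.39 (31 and 46 reads), a ratio of 1.90 [1.18 to 3.10] that misses the 2-fold limit. *Hes1*, the widely expressed Notch target, had 21.1 and 18.8 (ratio 0.893 [0.805 to 0.99]). *Hes6*, which is not itself a typical Notch target and can antagonize *Hes1*, had the highest level per kilobase of the family (15.1 and 18.1) with values of 27.3 and 32.7 (ratio 1.2 [1.10 to 1.30]), but was lower under equal library totals, at -0.02 on the log2 scale. *Hes2* (9 and 18 reads) and *Hes7* (11 and 5 reads) were under the filter. *Heyl* against *Hes1* differed 2.53-fold within the libraries [2.05 to 3.13]. *Hey1* was 11.3-fold higher against *Heyl* on the same within-library measure [6.21 to 21.4]. *Heyl* had the lowest and *Hey1* the highest ratio of the compared factors. The directions of these quotients, and the large size of the last, thus follow from that choice and support nothing further.

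*Notch3* and *Heyl* were thus the called Notch members on the lower side, and cell markers were read beside them. Fewer cells of a type and less RNA per cell cannot be told apart in bulk tissue. Of 14 fibroblast and mural cell markers, 13 had ratios under 1 and 5 were at least 2-fold lower, beside 10.1% of all compared genes. Their median log2 ratio was -0.80, with summed values of 863.1 and 475.1. The 5 called genes encode matrix proteins, with *Col1a1* at 47.8 and 11.1 (4.31-fold lower), *Col3a1* at 119.5 and 31.0 (3.86-fold), *Postn* at 2.22 and 0.815 (2.72-fold), *Col1a2* at 120.3 and 50.6 (2.38-fold) and *Dcn* at 120.4 and 55.2 (2.18-fold). The fibroblast receptor gene *Pdgfra* had 97.7 and 59.0 (1.66-fold lower). Genes of pericytes and smooth muscle in that list were not called. *Rgs5* had 61.9 and 60.5 (ratio 0.977 [0.921 to 1.04]), *Acta2* 30 and 29.6 (ratio 0.986 [0.906 to 1.07]) and *Myh11* 21.7 and 27.5 (ratio 1.27 [1.16 to 1.39]). *Tagln*, a smooth muscle gene, had 18.4 and 13.5 (ratio 0.733), and the pericyte gene *Cspg4* was 1.76-fold lower at 46.8 and 26.6. *Pdgfrb*, which both fibroblasts and pericytes carry, had 114.2 and 61.3, 1.86-fold lower. The pericyte and smooth muscle genes thus did not share 1 direction. Within the libraries *Notch3* differed 2.55-fold against *Rgs5* [2.27 to 2.87], 2.58-fold against *Acta2* [2.26 to 2.94] and 1.4-fold against *Pdgfrb* [1.25 to 1.57]. Against *Col1a1* it was relatively higher in TG+AKI (1.65-fold [1.42 to 1.92]). The part of these cell types in the *Notch3* and *Heyl* values was not tested. Injured tubule markers, of which 12 of 13 were at least 2-fold lower (median log2 ratio -2.95, summed values 13775 and 1062), moved with them as well, and their part was not tested.

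Endothelial markers gave another picture. None of 14 was called, beside 16.8% of all compared genes. Their median log2 ratio was -0.02 and their summed values were 708.5 and 684.3. Members known from endothelium took both directions beside this list. *Notch4* and *Notch1* were lower, *Dll4* was near equal, and *Hey1* and *Hey2* were higher. Among the markers themselves *Sox18* (5.76 and 11.1, ratio 1.94) and *Kdr* (58.5 and 96.4, ratio 1.65) were higher, and *Flt1* (136.4 and 96.7, ratio 0.709) and *Pecam1* (81.5 and 59.6, ratio 0.731) lower.

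**Figure D3:**
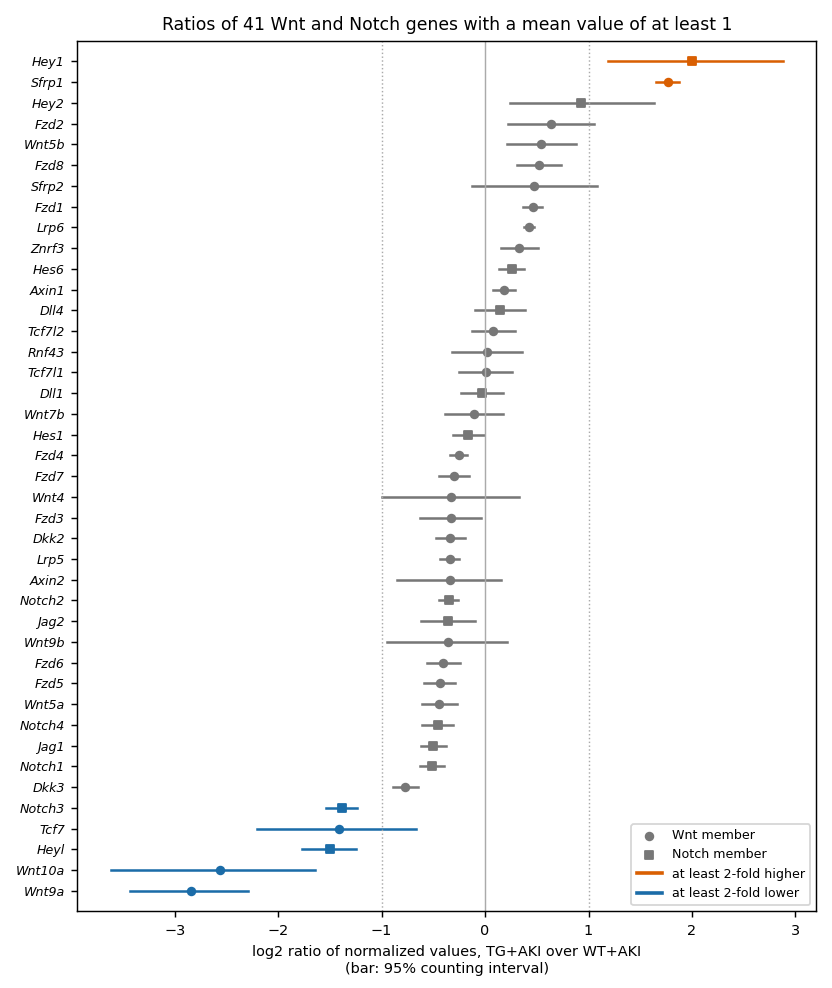
Log2 ratio of TG+AKI over WT+AKI for the 41 compared members with 95% counting intervals, sorted, Wnt members as circles and Notch members as squares, with dotted lines at 2-fold. The intervals of *Sfrp1*, *Hey1*, *Notch3*, *Heyl*, *Wnt9a* and *Wnt10a* lie wholly outside 2-fold, whereas that of *Tcf7* crosses it.

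Promoter windows of the members were inspected next, since the Notch members differed in direction. They span 250 bases before to 50 after a RefSeq start site on GRCm38.p6, the mm10 assembly that the submitters' notes name. A window was given for 36 of the 55 members (47 windows). They were rich in G and C, with a median of 66% against 52.7% over all 32851 windows, and held a median of 23 CpG pairs against 7. The letters TGGGAA, the core that RBPJ binds, occurred on either strand in 8 of the 47 windows (17.0%) and in 25.6% of all windows. The letters CTTTGA, the core that TCF/LEF factors bind, occurred in 5 (10.6%) and in 16.0%. Of the 4 windows of Hes and Hey factors 2 held the RBPJ core (50%), those of *Hey2* and *Hes7*. *Heyl*, *Hey1*, *Hes1*, *Sfrp1* and *Wnt10a* had no window.

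Windows are shown for the Notch receptor with the largest difference, for the Hey gene with 2 RBPJ cores, and for the Notch ligand with the highest level. Sequences run 5′ to 3′ on the gene's strand, with RBPJ and TCF/LEF cores in capitals. *Notch3* (chr17:32166841-32167140, minus strand) held neither core. *Hey2* (chr10:30842734-30843033, minus strand) held the RBPJ core from 3 bases before the start site and, reversed, from 207 bases before it. *Jag1* (chr2:137116471-137116770, minus strand) held the TCF/LEF core, reversed, from base 25 after the start. A match is a description of letters and not evidence of binding.
*Notch3*: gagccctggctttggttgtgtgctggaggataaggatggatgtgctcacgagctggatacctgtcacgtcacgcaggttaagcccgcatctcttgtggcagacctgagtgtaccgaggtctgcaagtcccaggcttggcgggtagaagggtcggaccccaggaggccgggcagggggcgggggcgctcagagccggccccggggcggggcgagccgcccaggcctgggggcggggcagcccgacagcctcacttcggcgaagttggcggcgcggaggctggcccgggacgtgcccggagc
*Hey2*: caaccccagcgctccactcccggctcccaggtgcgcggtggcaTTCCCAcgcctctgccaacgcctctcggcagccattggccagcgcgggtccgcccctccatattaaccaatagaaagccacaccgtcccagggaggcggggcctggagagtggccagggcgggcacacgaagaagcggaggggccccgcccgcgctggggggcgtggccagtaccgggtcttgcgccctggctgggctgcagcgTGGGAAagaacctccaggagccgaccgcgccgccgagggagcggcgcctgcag
*Jag1*: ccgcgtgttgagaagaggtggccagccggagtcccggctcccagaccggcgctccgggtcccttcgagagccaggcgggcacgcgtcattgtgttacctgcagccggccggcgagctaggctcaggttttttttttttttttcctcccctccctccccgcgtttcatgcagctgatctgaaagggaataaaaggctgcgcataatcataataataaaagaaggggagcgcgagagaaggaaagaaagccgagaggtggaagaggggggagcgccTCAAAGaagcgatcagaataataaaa

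Wnt ligands were scarce in both kidneys, and *Wnt9a* and *Wnt10a* were the called ones. Of 14 listed ligands 11 had a ratio under 1, as had 10120 of all 19829 listed genes. The counting intervals of 6 ligands lay below 1, as did those of 6194 of all listed genes. The filter was passed by 7. *Wnt9a* had a value of 6.49 from 275 reads in WT+AKI against 0.906 from 30 reads in TG+AKI. It was 7.16-fold lower [4.90 to 10.8], the largest fold among the compared members. *Wnt10a* had 1.96 and 0.332 (83 and 11 reads), 5.89-fold lower with a wide interval [3.13 to 12.3]. Both are ligands that can act through β-catenin. *Wnt5a*, the main non-canonical ligand and the ligand with the highest level per kilobase in WT+AKI, had 18.4 and 13.6, 1.36-fold lower [1.21 to 1.53]. Its relative *Wnt5b* was the compared ligand that was higher, at 3.42 and 4.98 (ratio 1.46 [1.16 to 1.83]).

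*Wnt7b*, a ligand of the collecting duct, had 5.92 and 5.50 (ratio 0.928 [0.763 to 1.13]). *Wnt4*, needed for the mesenchymal-to-epithelial step in nephron formation, had 1.25 and 0.996 from 53 and 33 reads, and *Wnt9b*, the inducer of that step from the ureteric bud, had 1.63 and 1.27 from 69 and 42 reads. Their ratios of 0.797 [0.500 to 1.25] and 0.779 [0.518 to 1.16] lie within counting error of 1. The other 7 ligands lay under the filter, with 4 to 54 reads. Among them *Wnt2* (40 and 9 reads), *Wnt6* (19 and 4 reads) and *Wnt16* (54 and 20 reads) had intervals below 1. *Wnt11* (6 and 23 reads) had a ratio of 4.91 [1.94 to 14.7]. *Wnt2b*, *Wnt7a* and *Wnt8b* had intervals that hold 1.

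The ligand make-up differed as well, with a summed level per kilobase of 9.41 in the wild-type and 6.30 in the transgenic library. Per kilobase of exon, *Wnt5a* (2.36), *Wnt9a* (1.95), *Wnt5b* (1.29) and *Wnt7b* (1.21) led in WT+AKI. In TG+AKI the leaders were *Wnt5b* (1.88), *Wnt5a* (1.73) and *Wnt7b* (1.12), where the counting intervals of *Wnt5b* and *Wnt5a* overlap. *Wnt9a* made up 20.7% of the summed ligand level per kilobase in WT+AKI but 4.32% in TG+AKI, and *Wnt5b* 13.7% and 29.8%. Within the libraries *Wnt9a* differed 5.26-fold against *Wnt5a* [3.53 to 8.09] and 5.58-fold against *Wnt9b* [3.15 to 9.91]. *Wnt9a* had the lowest ratio of the compared ligands, so that choice fixed the direction. The promoter window of *Wnt9a* (chr11:59306680-59306979, plus strand), shown for the compared member with the largest fold, had 83.3% G and C and 58 CpG pairs, and its capitals mark 1 reversed RBPJ core from 240 bases before the start.
*Wnt9a*: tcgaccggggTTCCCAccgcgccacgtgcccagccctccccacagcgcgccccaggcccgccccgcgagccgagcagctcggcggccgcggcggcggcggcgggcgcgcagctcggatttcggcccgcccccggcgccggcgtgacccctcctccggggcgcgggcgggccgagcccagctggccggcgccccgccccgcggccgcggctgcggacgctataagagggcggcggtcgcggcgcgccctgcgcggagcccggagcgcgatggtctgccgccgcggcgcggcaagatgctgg

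None of the 10 compared Wnt receptors was called, beside 16.8% of all compared genes. Each of their intervals excluded 1, as did 74.9% of those of all compared genes. *Lrp6*, a Wnt co-receptor, had 153.2 and 205.8 (ratio 1.34 [1.30 to 1.39]). *Lrp5*, its relative, had 58.7 and 46.3 (ratio 0.788 [0.739 to 0.840]). *Lrp6* reads per *Lrp5* read went from 2.61 to 4.45, 1.70-fold [1.58 to 1.83], a difference in which the library scaling cancels. The Frizzled receptors split in the same way. *Fzd1* (43.4 and 59.7, ratio 1.38 [1.29 to 1.47]), *Fzd8* (8.33 and 11.9, ratio 1.43) and *Fzd2* (2.12 and 3.29, ratio 1.55 [1.16 to 2.07]) were higher. *Fzd4*, the receptor of vascular endothelium that also binds Norrin, was lower at 75.1 and 62.8 (ratio 0.837), as were *Fzd5* (24.1 and 17.8, ratio 0.737), *Fzd6* (20.6 and 15.6, ratio 0.756), *Fzd7* (24.2 and 19.7, ratio 0.812) and *Fzd3* (6.09 and 4.83, ratio 0.794). *Fzd9* was near absent with 2 and 4 reads, a ratio of 2.56 [0.367 to 28.3].

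Summed per kilobase, the Frizzled level was 37.1 in WT+AKI and 37.0 in TG+AKI, but its make-up differed. In WT+AKI *Fzd4* held 30.1% and *Fzd1* 27.9%, and their counting intervals per kilobase overlap (10.78 to 11.56 and 9.87 to 10.82). In TG+AKI *Fzd1* led with 38.4% and *Fzd4* held 25.2%. For *Fzd5*, 17.8% of exon bases overlap a gene on the other strand.

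**Figure D4:**
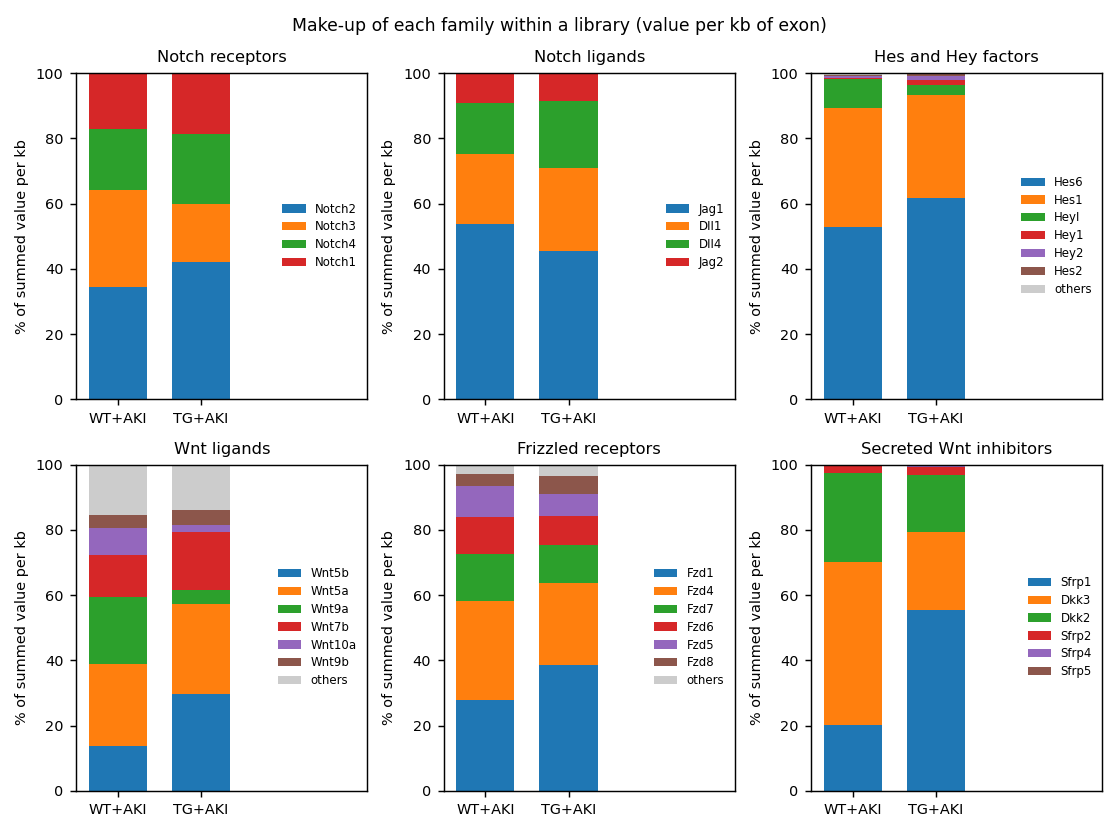
Share of each member in the summed value per kilobase of exon of its family, in percent, for WT+AKI and TG+AKI (1 library each). *Notch3* went from 29.6% to 17.7%, *Wnt9a* from 20.7% to 4.32%, *Fzd1* from 27.9% to 38.4% and *Sfrp1* from 20.0% to 55.3%.

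Secreted inhibitors held the called member with the most reads. *Sfrp1*, a Frizzled-related protein that binds Wnt ligands outside the cell, had a value of 21.7 from 920 reads in WT+AKI against 73.7 from 2440 reads in TG+AKI. It was 3.40-fold higher in the transgenic kidney [3.15 to 3.67]. *Dkk3*, a Dickkopf protein known as a tubular stress product, went the other way with 41.8 and 24.5, 1.71-fold lower [1.57 to 1.86]. *Dkk2*, an Lrp5/6 antagonist, had 25 and 19.8, 1.26-fold lower [1.14 to 1.39]. *Sfrp1* reads per *Dkk3* read went from 0.519 to 3.0, a 5.79-fold difference within the libraries [5.17 to 6.49]. Their ratios were the highest and the lowest of the compared inhibitors, so the choice of this pair fixed the direction. Summed over the listed Dkk and Sfrp genes alone, the inhibitor level per kilobase was 24.8 in the wild-type and 30.5 in the transgenic library. *Sfrp1* made up 20.0% of this summed level in WT+AKI but 55.3% in TG+AKI, and *Dkk3* 50.2% and 23.9%. *Frzb*, *Sostdc1* and *Wif1*, Wnt surface genes that the symbol rule does not take in, lie outside this sum. *Frzb* had 28.7 and 16.8, 1.70-fold lower [1.54 to 1.89]. *Sostdc1* (26.6 and 45.5, ratio 1.71) and *Wif1* (0.755 and 1.27, ratio 1.68) were higher. *Sfrp2* (1.08 and 1.51, ratio 1.39 [0.914 to 2.12]) had an interval that holds 1, *Sfrp4* (13 and 29 reads) had a ratio of 2.86 [1.44 to 5.98] under the filter, and *Sfrp5* had 4 reads in each library.

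Among the R-spondins, receptor ubiquitin ligases, axins and TCF/LEF factors, *Tcf7* was the called member. *Znrf3* and *Rnf43*, ubiquitin ligases that clear Frizzled from the surface and that Wnt signals induce, had 12.8 and 16.1 (ratio 1.26 [1.12 to 1.42]) and 3.94 and 3.99 (ratio 1.01 [0.799 to 1.28]). Of the R-spondins, which block these ligases, only *Rspo3* was listed, with 9 and 5 reads. *Axin1*, the scaffold of the β-catenin destruction complex, had 36.4 and 41.3 (ratio 1.13 [1.05 to 1.22]) and was lower under equal library totals. *Axin2*, the feedback gene most used as a readout of β-catenin activity, had 2.15 and 1.69 from 91 and 56 reads (ratio 0.788 [0.554 to 1.11]). *Axin2* kept its direction under every scaling and pseudocount, but none of these settings could have turned it. A pseudocount cannot turn a direction, and the other scalings moved log2 ratios by -0.27, -0.14 and 0.02. Ratios slightly above 1 can turn with the scaling, and *Rnf43*, *Tcf7l1* and *Tcf7l2*, like *Axin1*, were lower with equal library totals. *Tcf7l1* (6.89 and 6.92) and *Tcf7l2* (9.88 and 10.4), the TCF factors of epithelia, had ratios of 1.0 [0.841 to 1.2] and 1.06 [0.914 to 1.22].

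*Tcf7*, the TCF factor known from T cells, had 1.60 and 0.604 from 68 and 20 reads, 2.66-fold lower [1.59 to 4.62]. *Lef1* was under the filter with 19 and 21 reads. T cell markers were near the floor beside *Tcf7*. Of 10 listed, *Lck* alone passed the filter (1.2 and 1.06), *Cd3e* had 4 and 9 reads and *Trac* 29 and 25, and their summed values were 3.89 and 4.86. The intervals of 9 of the 10 hold 1, so no direction is read from this list, and the part of T cells in the *Tcf7* values was not tested.

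Other genes of the pathways were counted from lists of genes outside the families above. They stand beside all compared genes, of which 6.7% were called higher and 10.1% lower. Of 15 Wnt secretion and surface genes compared, *Gpc4*, a glypican co-receptor, was called higher (114.9 and 244.5, ratio 2.13) and *Ptk7*, a co-receptor of non-canonical signaling, lower (17.1 and 8.09, 2.12-fold). *Wls*, which carries Wnt proteins to the surface, had 205.9 and 235.2, and *Lgr4*, the R-spondin receptor, 149.1 and 235.4 (ratio 1.58). Of 33 intracellular Wnt genes, *Apc2* was higher (0.613 and 1.90) and *Nkd1* (6.44 and 2.66), *Nkd2* (1.53 and 0.725) and *Csnk1e* (33.5 and 16.4) lower. *Ctnnb1*, which encodes β-catenin, was near equal at 475.5 and 446.0 (ratio 0.938 [0.918 to 0.958]), as was *Gsk3b* at 72.1 and 71.2. Of 9 planar cell polarity genes, *Celsr2* was higher (47.2 and 94.6, ratio 2.0). Of 37 Notch core genes, *Numbl*, related to the Notch inhibitor Numb, was lower (8.70 and 3.05, 2.85-fold) and none was higher. *Rbpj* itself had 52.4 and 37.2 (ratio 0.711 [0.663 to 0.763]).

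Known target genes were called mostly on the lower side. Among all compared genes 10.1% were called lower and 6.7% higher. Of 17 compared Wnt/β-catenin targets 8 were at least 2-fold lower and none higher, with a median log2 ratio of -0.80. Among the lower targets, *Cd44* (36.9 and 1.45), *Plaur* (62.5 and 2.54) and *Myc* (36.0 and 4.86) are also known as injury and growth response genes. *Fosl1* had 41.2 in WT+AKI and a single read in TG+AKI. Feedback genes of the pathway in this list, singled out after their values were seen, took both directions. *Nkd1* was 2.42-fold lower and *Apcdd1* 1.74-fold lower, *Axin2* and *Rnf43* did not differ beyond counting error, and *Sp5* (4.39 and 6.79, ratio 1.55 [1.27 to 1.89]) and *Notum* (15.0 and 23.1, ratio 1.54 [1.38 to 1.71]) were higher. Of 12 compared Notch targets 6 were at least 2-fold lower and 1, *Hey1*, higher, with a median log2 ratio of -1.15. *Sox9* (11.6 and 0.513), *Cdkn1a* (581.1 and 31.2), *Myc* and *Nfkb2* (68.8 and 14) led, and all of these also answer to injury. *Nrarp*, a direct feedback inhibitor of Notch, had 8.16 and 4.35, 1.88-fold lower [1.54 to 2.30]. These lists share *Jag1*, *Tcf7*, *Notch3*, *Axin2* and other genes with the members and share *Sox9* with the injury markers, so they are not separate evidence.

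**Figure D5:**
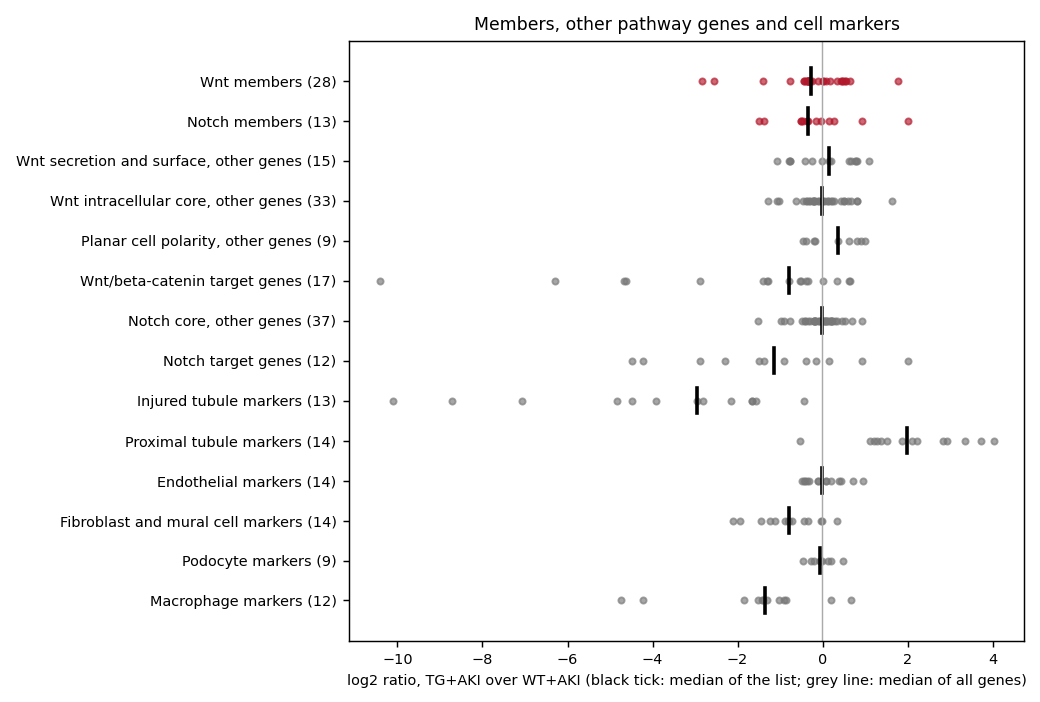
Log2 ratio of TG+AKI over WT+AKI of each compared gene (points) in the Wnt and Notch members and in 12 lists, with the number of genes in brackets and the list median as a black tick. Medians lie at -0.28 for Wnt members and -0.35 for Notch members, against -2.95 for injured tubule markers and 1.98 for proximal tubule markers.

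Epithelial markers framed these differences, beside all compared genes, of which 6.7% were at least 2-fold higher. Of 14 proximal tubule markers 13 were at least 2-fold higher in TG+AKI (median log2 ratio 1.98, summed values 6152 and 18796). Thick limb and distal convoluted tubule markers had a median of 1.09 over 9 genes, collecting duct principal cell markers 0.37 over 9 and intercalated cell markers 0.26 over 9 (-0.01 with equal library totals). Of the principal cell list, *Elf5*, a factor linked to Notch in the collecting duct, was 2.47-fold lower at 2.24 and 0.906 (95 and 30 reads). It was the 1 gene of the 9 called lower, whereas 2 were called higher, *Aqp4* (17.6 and 43.9) and *Avpr2* (7.69 and 16.2). Ratios lay above 1 for 6 of the 9, among them *Aqp2* at 153.5 and 178.2. Podocyte markers had a median of -0.06 over 9 genes and macrophage markers -1.35 over 12 genes. Housekeeping genes had a median of -0.16 over 14. The part of these shifts in cell make-up in the member values was not tested.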

How the data were processed

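RNA of whole kidneys was sequenced from 1 library each of WT+AKI and TG+AKI (TruSeq Stranded mRNA, NovaSeq). According to the authors' methods, reads were aligned with STAR 2.7.3a and counted with HTSeq, and the processing notes also name mm10, edgeR, DESeq2, FastQC and Cufflinks 2.2.1. The gene annotation and the use of strand in counting are not given in the sources used here. The deposited values are a normalized signal, gene counts divided by a scaled library size. All values were whole multiples (within 0.01) of the smallest value in their column, so the reads were recovered. The TMM factors of edgeR, recomputed from these reads as 1.10 and 0.909, gave back the deposited scale.

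A gene was compared when its mean value was at least 1, and called at a 2-fold ratio without a pseudocount. Intervals are exact Clopper-Pearson 95% intervals of the ratio, and for ratios within a library exact conditional ones. PCR reads without molecular identifiers are not independent molecules, so the intervals and the floor of 3 reads (values of 0.0708 and 0.0906) cover counting error only. No p-value is given, since there is 1 library per group. On simulated data for this comparison, with 200 of 14554 genes changed 4-fold, 100% were called, 1 unchanged gene was called, and 95.5% of intervals held the true ratio. The simulated reads carried counting error alone, without differences between mice. The changed genes had mean values of at least 2, above those of *Hey1*, *Tcf7* and *Wnt10a*. Since 4-fold lies beyond the 2-fold limit, full recovery was likely from the outset and is no check of the calls. Lengths came from exons of GENCODE M21, and promoter windows from RefSeq. Gene IDs matched the RefSeq table for 99.8% of rows.

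The members, gene lists and settings were chosen with earlier results of these data known. Genes named were all listed members, *Inmt*, *Havcr1* and *Lcn2*, and a part of the up to 8 genes per list with the largest absolute log2 ratio. That part was picked without a further rule. The macrophage, podocyte, intercalated cell and housekeeping lists are described without naming genes. A gene of the target lists that this rule takes in is not reported here, though it stays in the list counts. Other list genes (*Umod*, *Rgs5*, *Acta2*, *Wls*, *Ctnnb1*, *Gsk3b*, *Rbpj*, *Aqp2*, *Lck*, *Cd3e* and *Trac* among them) were named after their values were seen. Other scalings, pseudocounts, filters, folds and gene lengths were tried. Python 3.11.15, pandas 2.3.3 and scipy 1.17.1 were used.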

Additional observations from a re-analysis of the deposited data

How the results depend on the processing

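No paired analysis was possible because each group had 1 library. The 2 called higher and 5 called lower members changed in number with low values, fold and scaling, and a further filter, a value of at least 10 in 1 library, was run together with log2(value + 1). Higher members numbered 1 on the log2(value + 1) or log2(value + 10) scale, 1 with a mean value of at least 10 or with that combined setting, 6 with no filter and 4 at 1.5-fold. Lower members numbered 0 on log2(value + 10), where *Sfrp1* was the member still called, 10 with no filter, 1 with a mean of at least 10, 2 with the combined setting, and 6 at 1.5-fold or with equal library totals, where *Dkk3* was added. For all genes, higher calls numbered 631 with equal library totals, 372 on log2(value + 10), 1821 with no filter, 561 with a mean of at least 10, 591 with the combined setting and 2184 at 1.5-fold. Lower calls numbered 408 on log2(value + 10), 2489, 662, 733 and 2705 under the last 4 of these. The share called was 29.1% of members and 21.7% of all genes with no filter, and 24.4% and 33.6% at 1.5-fold. It was 8.7% and 12.4% with a mean of at least 10, and 12.5% and 12.9% with the combined setting. On log2(value + 1) it was 12.2% and 12.9%, on log2(value + 10) 2.4% and 5.4%, and with equal library totals 19.5% and 19.2%. The 2 shares were thus not near each other under every setting. Median log2 ratios with equal library totals were -0.57 for all members, -0.55 for Wnt members and -0.63 for Notch members, and on log2(value + 10) they were -0.055, -0.042 and -0.14. Setting to 1 the median ratio of genes with values of 100 or more moved the median of all genes by -0.14. Over 6 scalings and pseudocounts 35 of 41 members kept their direction, and *Rnf43*, *Axin1*, *Tcf7l1*, *Tcf7l2*, *Dll4* and *Hes6* turned with equal library totals. Pseudocounts cannot turn a direction, and no scaling moved log2 ratios up by more than 0.02. Only members slightly above 1 could thus turn, so this count is no measure of stability. Depth limits the 14 members under the filter, with 2 to 54 reads per library.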
